A study of Mus musculus with 6 samples.

Results

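Cytochromes P450 are haem enzymes that insert oxygen into drugs, solvents, steroids, bile acids, fatty acids and vitamins, and they were followed here in fetal mouse lungs with and without Smad1 in the epithelium. The members are all genes whose array symbol has the form Cyp, number, letter, number, except Cyp2f2, Cyp4v3, Cyp51 and Cyp26b1. They number 67 of the 18193 genes on the array that have a symbol of their own, and for a gene with several probe sets the one of highest mean signal stands for it. The groups are 3 wild type mice and 3 mice with a conditional knockout of Smad1 (Smad1 CKO), a transcription factor of bone morphogenetic protein signalling. All are C57/BL6 embryos at E18.5, shortly before birth, and RNA came from the left lobe of the lung and was read on 6 Affymetrix Mouse430_2 arrays. The knockout is described as restricted to lung epithelium, but the sources used here do not name the recombinase driver, the deleted part of Smad1 or any alleles the wild type mice share.

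Most P450 enzymes sit in the membrane of the endoplasmic reticulum and draw electrons from the reductase Por, and those of steroid, bile acid and vitamin D metabolism that sit in mitochondria draw them from the ferredoxin Fdx1. Liver is the main site of the drug-metabolising families, and in lung the airway club cells are known for several of them. Many P450 genes are switched on by their own substrates through receptors such as Ahr, which binds aromatic hydrocarbons, Nr1i2 and Nr1i3, which sense drugs, and the retinoic acid receptors.

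Values are log2(intensity + 1), a difference is the average over the 3 pairs of Smad1 CKO minus wild type, and the error is the SD over those pair differences unless an SE is named. P-values come from limma with the pair as a block, adjusted by Benjamini-Hochberg over all 45037 probe sets. They rest on the spread of the pair differences, which limma draws toward a spread common to all probe sets. The printed SD is therefore not the spread behind a p-value, and 3 arrays a group limit the precision. Each animal was read on its own array, so animal and array effects cannot be told apart in the spread of the pair differences. A lobe holds many cell types, so fewer cells of a type and less RNA per cell cannot be told apart. The brightness of a probe set depends on its own sequence as well as on RNA, so levels are not ranked between genes as amounts of RNA. Brightness is used only to sort all genes into bright, middle and dim tiers of equal size by their mean over the 6 arrays.

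The array labelled Smad1 CKO 3 stood apart: its control probe set for 18S ribosomal RNA had an intensity of 2887 (242.5 to 297.2 elsewhere) and that for beta-actin one of 5820 (18445 to 20900 elsewhere). In pair 3 the median difference of all genes was -1.09 in the bright tier and 0.36 in the dim tier. Pair 1 also differed by brightness, with -0.29 and 0.25, while in pair 2 these medians were -0.03 and 0.03. Smad1 CKO 1 was the one array with a high log2 level of Xist (10.95, against 6.07 to 7.70) and a low level of the Y-linked Eif2s3y (3.78, against 7.06 to 9.04), so sex-linked genes set the animals of pair 1 apart. Array or pair values therefore stand beside the larger differences below.

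Promoter windows from RefSeq (build GRCm38.p6, 250 bases before to 50 after the listed start site) were matched to 48 of the 67 members, with 55 windows in all. Those of the genes with the largest paired difference in each direction among members with an unadjusted p under 0.05, Cyp2e1 (lower) and Cyp26a1 (higher), are shown with that of Cyp4b1, a bright gene known for its level in lung, and of Cyp2j13, a dim gene that was higher in every pair. Capitals mark TATAAA and, in Cyp26a1, the direct repeat of a retinoic acid response element (on the reverse strand), which was searched for after the window had been read. The Cyp2e1 window is chr7:140763569-140763868 (+ strand), that of Cyp26a1 is chr19:37697558-37697857 (+ strand), that of Cyp4b1 is chr4:115647672-115647971 (- strand) and that of Cyp2j13 is chr4:96077491-96077790 (- strand).
Cyp2e1: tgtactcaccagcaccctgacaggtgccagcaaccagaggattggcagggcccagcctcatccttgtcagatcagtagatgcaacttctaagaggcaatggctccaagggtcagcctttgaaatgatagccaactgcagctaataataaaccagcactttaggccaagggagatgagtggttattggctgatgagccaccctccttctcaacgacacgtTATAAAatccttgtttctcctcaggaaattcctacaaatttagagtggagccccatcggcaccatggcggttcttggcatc
Cyp26a1: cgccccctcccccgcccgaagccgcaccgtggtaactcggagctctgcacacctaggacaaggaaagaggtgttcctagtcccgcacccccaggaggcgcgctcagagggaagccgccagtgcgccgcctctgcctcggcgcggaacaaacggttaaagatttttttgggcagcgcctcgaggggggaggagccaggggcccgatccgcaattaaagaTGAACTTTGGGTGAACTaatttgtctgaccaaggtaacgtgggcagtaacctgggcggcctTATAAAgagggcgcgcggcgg
Cyp4b1: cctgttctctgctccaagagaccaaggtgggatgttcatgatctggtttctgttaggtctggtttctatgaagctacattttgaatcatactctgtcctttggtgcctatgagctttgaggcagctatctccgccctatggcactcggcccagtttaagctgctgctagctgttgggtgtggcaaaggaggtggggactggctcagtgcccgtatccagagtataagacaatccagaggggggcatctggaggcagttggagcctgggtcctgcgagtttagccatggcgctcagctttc
Cyp2j13: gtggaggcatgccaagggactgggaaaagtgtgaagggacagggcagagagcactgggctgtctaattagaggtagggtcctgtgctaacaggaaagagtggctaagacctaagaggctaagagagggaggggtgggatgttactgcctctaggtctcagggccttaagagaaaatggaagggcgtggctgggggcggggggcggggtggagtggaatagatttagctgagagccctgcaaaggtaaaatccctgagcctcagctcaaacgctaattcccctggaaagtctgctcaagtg

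In Cyp2e1 the TATAAA starts 31 bases before the listed start site. In Cyp26a1 the 17 bases of the repeat start 32 bases before it and a TATAAA starts 29 bases after it. The windows of Cyp4b1 and Cyp2j13 hold none of the motifs searched.

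Across the family, TATAAA on either strand was in 20 of 55 windows (36.4%), against 13.6% of the 32851 windows of all genes. The forkhead motif TGTTTAC was in 7 windows (12.7%, against 3.65%), which belong to 6 members of the subfamilies Cyp2c, Cyp2j and Cyp3a. The core TNGCGTG bound by Ahr was in 1 window (1.82%, against 5.07%), and GGCGCC, a core of BMP-responsive Smad elements, in 2 (3.64%, against 11.9%). The retinoic acid direct repeat was searched for only with the repeated letters of the Cyp26a1 window, which had been read first. Its match in Cyp26a1 was therefore given beforehand and is not a result. In that exact spelling it was in no window of another member and in 8 windows of all genes (0.0244%). Other spellings of such elements were not searched, so this is not the frequency of retinoic acid direct repeats in general. Each motif was counted on both strands and without regard to the others, and a match is a run of letters and not a shown binding site. Some windows of a gene overlap, and genes of a subfamily can be close copies, so the windows are not independent.

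None of the 67 members passed the adjusted threshold, in either direction, as was the case for the 18193 genes by their representative probe sets (0% called lower and 0% higher). Among all probe sets 1 was called, lower (0.00222%), and 0 were called higher (0%). At an unadjusted p under 0.05 stood 7 members, or 10.4%, against 14.9% of all genes. With a difference of at least 1.5-fold as well, Cyp2e1 was the 1 member lower (background 8.71%, or 13.9% of bright genes) and Cyp26a1 the 1 member higher (background 3.97%, or 5.24% of genes in the middle tier).

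The family as a whole was dim, and in the bright and dim tiers its medians lay close to those of all genes. The bright tier held 4 members (Cyp20a1, Cyp4b1, Cyp2s1 and Cyp2e1), the middle tier 13 and the dim tier 50. The median difference of all members was 0.19, against -0.09 for all genes, with 50 of 67 higher on average (background 44.3%) and 17 lower (background 55.7%). In the dim tier the members' median was 0.25 and that of all genes 0.24, with 84% of members and 85.2% of genes higher on average, and 16% and 14.8% lower. In the bright tier the medians were -0.50 and -0.48, and 4 of 4 members were lower on average, as were 92.5% of genes (7.49% were higher). Without the array Smad1 CKO 3 (3 wild type against 2 CKO arrays, unpaired) the median of all members was -0.00044, with 33 higher and 34 lower.

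The middle tier is where members and other genes had medians of opposite sign. The 13 members had a median of 0.29 and the 6064 genes one of -0.12, and 8 members were higher on average (background 40.3%) and 5 lower (background 59.7%). By pair, the members' medians were -0.12, 0.05 and 0.35, against -0.15, -0.01 and -0.17 for all genes of that tier. Only pair 3 therefore set them far apart, and without it the medians were 0.07 and -0.07. After cyclic loess normalization they were 0.27 and 0.06.

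Pairs differed greatly in how far the genes stood from each other. In pair 2 none of the 67 members reached a 1.5-fold difference (background 3.18%), while 19 did in pair 1 (28.4%, background 25.9%) and 32 in pair 3 (47.8%, background 53.7%). Members higher in all 3 pairs numbered 18 (26.9%, background 21%) and those lower in all 3 pairs 9 (13.4%, background 29.3%). Of the 18, 16 were dim and 2 in the middle tier, where 41.6% and 19.1% of all genes were higher in all pairs, and 0 were bright (background 2.18%). Of the 9, 3 were bright, 2 in the middle tier and 4 dim, with backgrounds of 50.9%, 31.4% and 5.69%. The values on both groups' arrays did not overlap for 3 members that were lower (Cyp2e1, Cyp2d22 and Cyp2r1, 4.48%, background 6.05%) and 4 that were higher (Cyp4f18, Cyp46a1, Cyp2j13 and Cyp4f15, 5.97%, background 4.25%). Cyp46a1 falls outside the naming rule, as do Cyp2j5, Cyp2j6, Cyp2j9, Cyp2b10 and Cyp2d13 below, and was named after its values were seen.

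**Figure D1:**
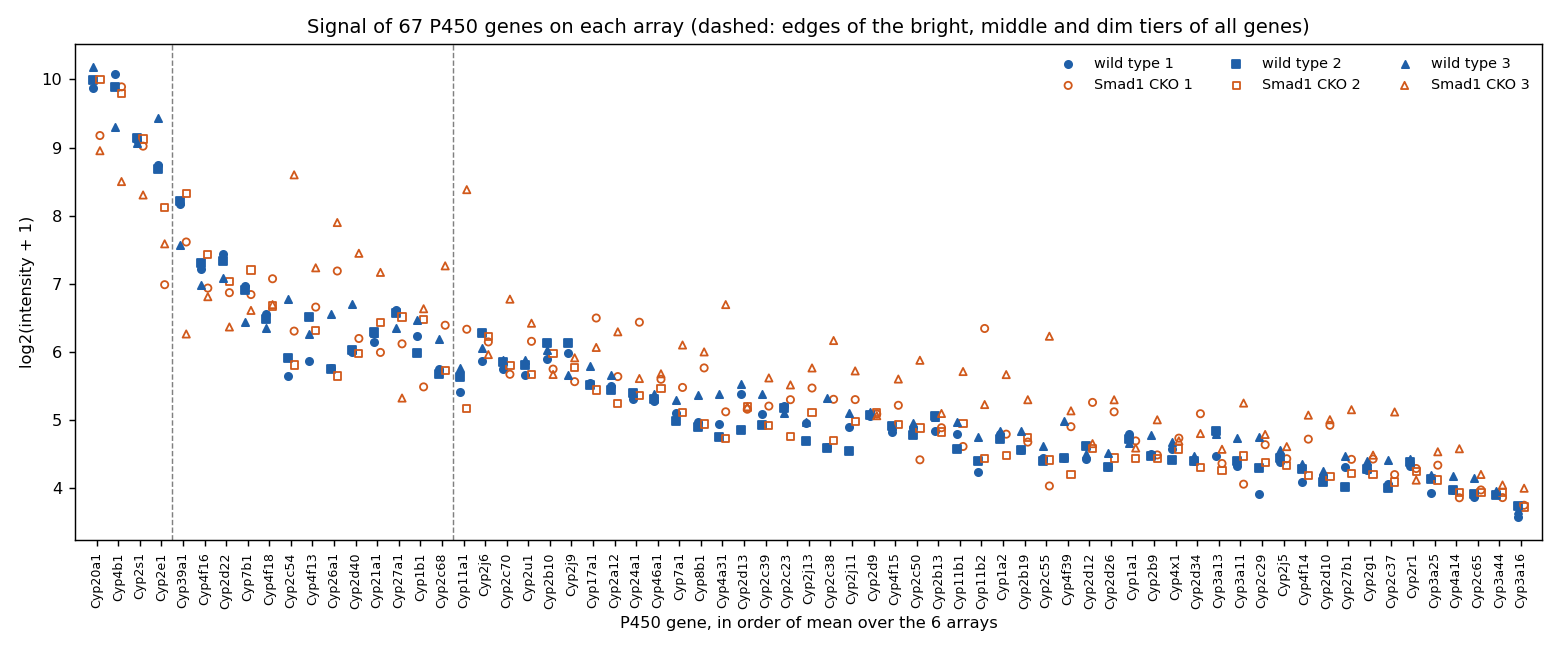
Log2(intensity + 1) of the 67 P450 genes on each of the 6 arrays, in order of the mean over the arrays; filled blue symbols are wild type, open orange symbols Smad1 CKO, the symbol shape gives the pair, and dashed lines are the edges of the bright, middle and dim tiers of all genes. The CKO points of pair 3 (open triangles) lie low for the 4 bright genes and high for many dim ones, and the order along the axis is not an order of RNA amounts.

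**Figure D2:**
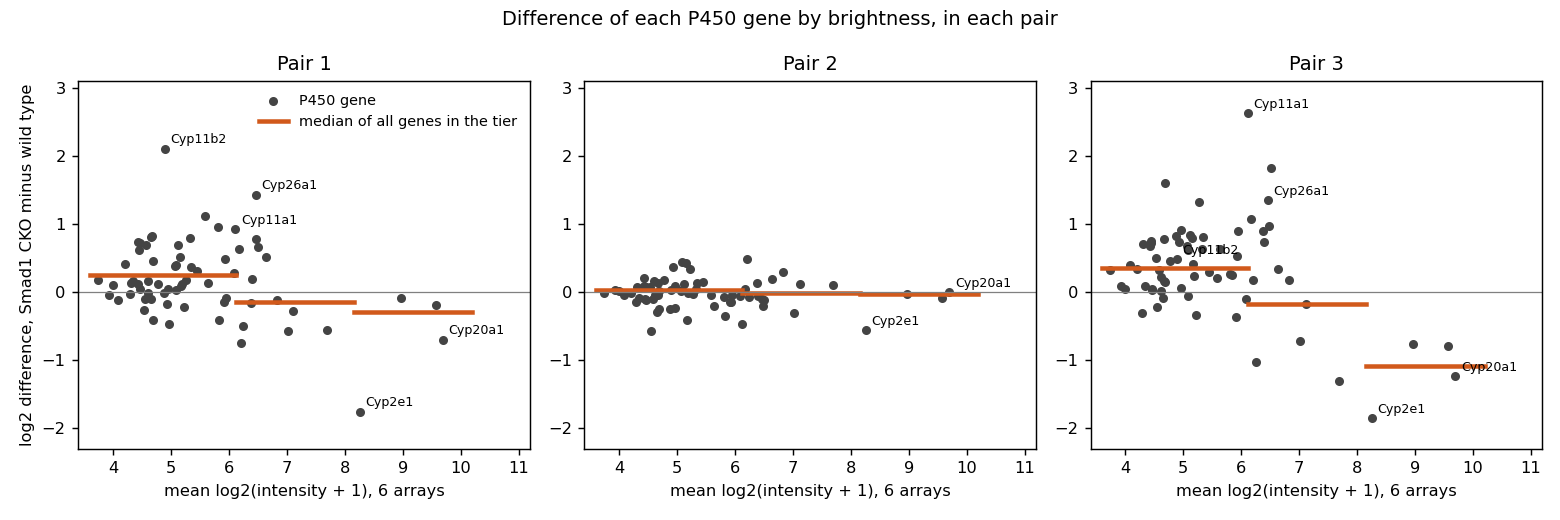
Log2 difference (Smad1 CKO minus wild type) of each P450 gene against its mean log2(intensity + 1), in a panel for each pair; orange lines are the medians of all genes in each brightness tier, drawn up to the range of the members. In pair 2 the points stay near 0 and none reaches 1.5-fold, while in pair 3 the 4 bright genes lie between -1.85 and -0.77, on both sides of the line at -1.09, and 43 of the 50 dim ones lie above 0.

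Family 2 is the largest group, with enzymes for drugs, small solvents and arachidonic acid, and it holds 33 members without the vitamin D enzyme Cyp2r1. Their median difference was 0.19, with 4 lower and 10 higher in all 3 pairs (backgrounds of 29.3% and 21%). Of the 33, 27 were dim, a tier in which 41.6% of all genes were higher in all 3 pairs. The group's pair medians were 0.12, -0.04 and 0.32.

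Cyp2e1, which oxidises ethanol, acetone and other small molecules, had the largest difference of the family in size. Its log2 level was 8.74, 8.68 and 9.44 in wild type lungs 1 to 3 and 6.99, 8.12 and 7.59 in CKO lungs 1 to 3. All 3 CKO values lay below all 3 wild type values, and the highest of the CKO values was that of pair 2. Averaged over pairs it was lower by 2.62-fold, a difference of -1.39 ± 0.72 (SD) with a 95% interval of -2.14 to -0.64. Its unadjusted p was 0.00403 and the limma adjusted p was 0.367, so Cyp2e1 did not pass. Over the alternatives its adjusted p ranged from 0.179 to 0.917.

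Measured by pair, Cyp2e1 differed by -1.76, -0.56 and -1.85. It was at -1.16 without pair 3, at -1.01 after cyclic loess normalization and at -1.40 without the array Smad1 CKO 3, unpaired. Markers of alveolar type 2 and endothelial cells also had lower values on average over the pairs. All 13 are bright, a tier in which 50.9% of all genes were lower in all 3 pairs. The 6 measured alveolar type 2 markers had pair medians of -0.80, -0.55 and -2.42, and 5 were lower in all 3 pairs. Their summed intensity was 49455 to 60310 in wild type and 9983 to 39039 in CKO lungs. Without pair 3 their median was -0.68, and after cyclic loess normalization it was -0.56. They were not alike: without pair 3 Sftpa1 was at -4.58, Abca3 at -1.44, Sftpb at -0.97 and Sftpc at -0.38. Napsa and Sftpd were then at -0.02 and 0.05. For the 7 endothelial markers the pair medians were -0.72, -0.58 and -1.54, and 7 were lower in all pairs. Their sums were 8735 to 12916 in wild type and 2917 to 8463 in CKO lungs. Their median was -0.65 without pair 3 and -0.42 after cyclic loess normalization. The 5 club cell markers had pair medians of -0.04, 0.03 and -1.22, with sums of 23021 to 33473 and 7344 to 31211, and their median was 0.17 without pair 3 and 0.18 after cyclic loess normalization. They had no common direction: Scgb1a1 was at -0.80 and Scgb3a2 at -0.59, while Scgb3a1 was at 0.93 and Bpifa1 at 0.35. The part of these cell types in the Cyp2e1 difference was not tested. No marker was at 0, but the lowest mean log2 level of any gene was 3.61, so this is not a detection call.

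Cyp2s1, an epithelial P450 found mainly outside the liver, was at 9.10, 9.15 and 9.07 in wild type and at 9.02, 9.13 and 8.30 in CKO lungs. Only the CKO lung of pair 3 was clearly low, and the difference was -0.29 ± 0.41 (SD, 3 pairs; limma adjusted p = 0.465). It was 0.16 after cyclic loess normalization, so its direction turned.

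Cyp2d22, a relative of the human drug enzyme CYP2D6, was at 7.44, 7.34 and 7.09 in wild type and at 6.87, 7.03 and 6.36 in CKO lungs. The groups did not overlap, and the difference was -0.53 ± 0.21 (unadjusted p = 0.0343, limma adjusted p = 0.367). Its other probe set, of nearly the same brightness, gave -0.15 with 0.22 in pair 3, so the probe sets did not give the same size.

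The arachidonic acid epoxygenase subfamily Cyp2j had 5 members, of which Cyp2j13 and Cyp2j11 were higher in all 3 pairs. Cyp2j13 was at 4.96, 4.69 and 4.96 in wild type and at 5.47, 5.11 and 5.76 in CKO lungs, with no overlap and a difference of 0.58 ± 0.20 (unadjusted p = 0.0246, limma adjusted p = 0.367). Cyp2j11 was at 4.90, 4.54 and 5.10 in wild type and at 5.30, 4.98 and 5.72 in CKO lungs, with a difference of 0.49 ± 0.12 (limma adjusted p = 0.367). These differences were among the most even of the larger ones: 0.51, 0.42 and 0.80 for Cyp2j13 and 0.40, 0.44 and 0.62 for Cyp2j11. The other members, Cyp2j6, Cyp2j9 and Cyp2j5, stood at 0.04, -0.17 and -0.01. Both genes are dim. Of all dim genes 41.6% were higher in all 3 pairs, and their median was 0.24.

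The Cyp2c subfamily, drug and fatty acid enzymes known mostly from liver, had 11 members with differences from 0.03 to 0.79, of which 9 were dim. By pair their medians were 0.12, 0.02 and 0.84. Cyp2c68 was at 5.75, 5.67 and 6.19 in wild type and at 6.39, 5.72 and 7.26 in CKO lungs, higher in all 3 pairs, with a difference of 0.59 ± 0.51 (limma adjusted p = 0.367). Cyp2d40, in the middle tier, had pair differences of 0.19, -0.06 and 0.74, so pair 3 carried its mean of 0.29 ± 0.41 (limma adjusted p = 0.460). The 8 members of Cyp2d ranged from -0.53 to 0.58 and the 4 of Cyp2b from -0.22 to 0.25. Genes of these subfamilies are close copies of each other, so probes of one may read RNA of another.

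Many members lie side by side in the genome. In the RefSeq gene order 33 members formed 21 pairs of neighbouring genes, and in 18 of these pairs both genes differed in the same direction. Since most of these genes are dim and dim genes were mostly higher, this is given as a count alone.

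Family 4 enzymes add a hydroxyl group near the end of fatty acids, leukotrienes and related lipids. The 10 members had a median of 0.24, with 1 lower and 3 higher in all 3 pairs (backgrounds of 29.3% and 21%), and 6 were dim. Cyp4b1, which in lung also activates aromatic and furan compounds, was at 10.09, 9.88 and 9.30 in wild type and at 9.89, 9.79 and 8.50 in CKO lungs. The CKO lungs of pairs 1 and 2 lay inside the wild type range and that of pair 3 below it. The difference was -0.36 ± 0.38 (limma adjusted p = 0.392), but 0.14 after cyclic loess normalization and 0.087 without the array Smad1 CKO 3, unpaired, so no direction was settled.

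Cyp4f18, known for inactivating leukotriene B4 in neutrophils, was at 6.55, 6.49 and 6.35 in wild type and at 7.07, 6.67 and 6.69 in CKO lungs. Every CKO value lay above every wild type value, although the difference was small, 0.35 ± 0.17 (limma adjusted p = 0.373). It was 0.40 after cyclic loess normalization and 0.35 without pair 3, and its other probe set gave 0.28. Cyp4f13 had a difference of 0.52, Cyp4f14 of 0.41, Cyp4f15 of 0.36 and Cyp4f16 of -0.11, with adjusted p-values (limma) of 0.373 to 0.742. In pair 2 these 4 genes were at -0.20, -0.10, 0.02 and 0.13.

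Family 3 enzymes handle drugs and steroids, and their 5 members were all dim, with a median of 0.10. Cyp3a13 was at -0.30 ± 0.24 and lower in all 3 pairs (-0.10, -0.57 and -0.22). Cyp3a11, Cyp3a16 and Cyp3a25 were at 0.10, 0.16 and 0.25, and none passed (limma adjusted p of 0.409 to 0.786 among these 4).

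The enzymes induced through Ahr did not stand apart. Cyp1a1, which oxidises aromatic hydrocarbons, was at 4.79, 4.72 and 4.67 in wild type and at 4.69, 4.43 and 4.59 in CKO lungs, with a difference of -0.16 ± 0.12. Cyp1a2 was at 0.19 ± 0.56, with pair values of -0.01, -0.25 and 0.82. Cyp1b1, the member of this family known from tissues outside the liver, was at 6.24, 5.98 and 6.46 in wild type and at 5.48, 6.47 and 6.63 in CKO lungs. Its pair differences of -0.75, 0.49 and 0.17 had no common direction, and its mean difference was -0.03 with a 95% interval of -0.73 to 0.67. Adjusted p-values (limma) of the 3 genes were 0.614 to 0.956.

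Cyp26a1 breaks down retinoic acid and is itself a known target of retinoic acid receptors. It was at 5.76, 5.75 and 6.55 in wild type and at 7.19, 5.64 and 7.90 in CKO lungs. The CKO lungs of pairs 1 and 3 were above all wild type lungs, and that of pair 2 was below them all. The difference was 0.89 ± 0.86 (SD, 3 pairs), a 1.85-fold higher intensity, with pair values of 1.43, -0.11 and 1.35 (unadjusted p = 0.0424, limma adjusted p = 0.367). Without the pair as a block the unadjusted p was 0.165. Cyp26a1 was at 0.66 without pair 3, at 0.62 without pair 1, at 1.39 without pair 2 and at 0.40 without the array Smad1 CKO 3, unpaired.

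Genes of steroid hormone synthesis, an activity of adrenal gland and gonad, were dim apart from Cyp21a1 in the middle tier. The 5 members were all higher on average, with a median of 0.38 and pair medians of 0.92, 0.03 and 0.74. Of all dim genes 85.2% were higher on average, with a median of 0.24. Cyp11a1, which starts the pathway by cutting the side chain of cholesterol, was at 5.41, 5.63 and 5.76 in wild type and at 6.33, 5.16 and 8.38 in CKO lungs. The value of Smad1 CKO 3 was far above all others, and the difference was 1.03 ± 1.55 (limma adjusted p = 0.373), or 0.23 without pair 3. Its other probe sets gave 0.06 and 0.14. The representative one, the brightest of the gene though in the dim tier, is of a type (x) whose probes may also match other sequences.

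Cyp11b2, aldosterone synthase, had 1 high value instead in Smad1 CKO 1. It was at 4.24, 4.40 and 4.74 in wild type and at 6.34, 4.43 and 5.22 in CKO lungs, with a difference of 0.87 ± 1.09 (limma adjusted p = 0.367). Cyp17a1 was at 0.38 (pairs 0.96, -0.08 and 0.27), Cyp11b1 at 0.31 (-0.18, 0.37 and 0.74) and Cyp21a1 at 0.29 (-0.15, 0.13 and 0.90). The other, somewhat dimmer probe set of Cyp21a1 gave 0.48, with pair values of 0.68, 0.17 and 0.58. For the markers of steroid-making cells (Star, Hsd3b1 and Nr5a1) the pair medians were 0.20, 0.04 and 0.28, and all 3 are dim. Their summed intensities were 133.3 to 154.6 in wild type and 135.2 to 197.4 in CKO lungs. Their part in these values was not tested.

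The 6 bile acid and oxysterol enzymes had a median of 0.19, with 1 lower and 3 higher in all 3 pairs (backgrounds of 29.3% and 21%). Cyp39a1, an oxysterol hydroxylase, was at 8.17, 8.22 and 7.57 in wild type and at 7.61, 8.33 and 6.26 in CKO lungs, with a difference of -0.59 ± 0.71 (limma adjusted p = 0.370). It was -0.22 without pair 3 and -0.015 without the array Smad1 CKO 3, unpaired. Cyp27a1, the mitochondrial sterol hydroxylase, was at 6.62, 6.58 and 6.35 in wild type and at 6.12, 6.51 and 5.32 in CKO lungs. It was lower in all 3 pairs, at -0.53 ± 0.48 (limma adjusted p = 0.367), and at -0.59 after cyclic loess normalization, but at -0.29 without pair 3 and at -0.20 without the array Smad1 CKO 3, unpaired. Its other, very dim probe set gave 0.0031, and the mean of both was -0.26. Cyp7b1, the other oxysterol hydroxylase in the middle tier, was at 0.12 ± 0.21, with -0.15 and 0.17 from its other probe sets.

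Cyp7a1, the rate-limiting enzyme of bile acid synthesis, and Cyp8b1, which directs it to cholic acid, were higher in all 3 pairs at 0.44 ± 0.35 and 0.49 ± 0.39 (limma adjusted p = 0.367 for each). Cyp7a1 had pair values of 0.37, 0.13 and 0.81, and Cyp8b1 of 0.79, 0.05 and 0.64. The other, dimmer probe set of Cyp7a1 was not higher in every pair. It gave 0.12, with pair values of 0.58, 0.01 and -0.23, and the mean of both probe sets was 0.28. Cyp7a1 was at 0.25 without pair 3, and after cyclic loess normalization Cyp7a1 and Cyp8b1 were at 0.25 and 0.30. Cyp46a1, the cholesterol hydroxylase of brain, was at 0.25 ± 0.09 with no overlap between the groups (limma adjusted p = 0.433), but at 0.06 after cyclic loess normalization. All 3 genes are dim.

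Of the vitamin D enzymes, Cyp2r1, which makes the circulating form, was at -0.16 ± 0.14, Cyp27b1, which makes the active hormone, at 0.33 ± 0.31, and Cyp24a1, which inactivates it, at 0.43 ± 0.61. Cyp24a1 was at 5.31, 5.40 and 5.40 in wild type and at 6.43, 5.35 and 5.61 in CKO lungs. On this probe set 1 high value, in Smad1 CKO 1, carried the mean. The other, dimmer probe set of Cyp24a1 also gave 0.43, but with pair values of 0.69, -0.06 and 0.67. Pair values were -0.03, -0.14 and -0.30 for Cyp2r1 and 0.12, 0.20 and 0.68 for Cyp27b1. None passed (limma adjusted p of 0.394 to 0.607).

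Cyp20a1, an orphan enzyme without an established substrate, is the brightest member. It was at 9.87, 10.00 and 10.19 in wild type and at 9.18, 10.00 and 8.95 in CKO lungs. Pair 2 showed no difference (0.0013), while pairs 1 and 3 gave -0.70 and -1.24, for a mean of -0.64 ± 0.62 (limma adjusted p = 0.367). Against the median of the bright tier (-0.29, -0.03 and -1.09) only pair 1 lay well below it. After cyclic loess normalization the difference was -0.13.

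**Figure D3:**
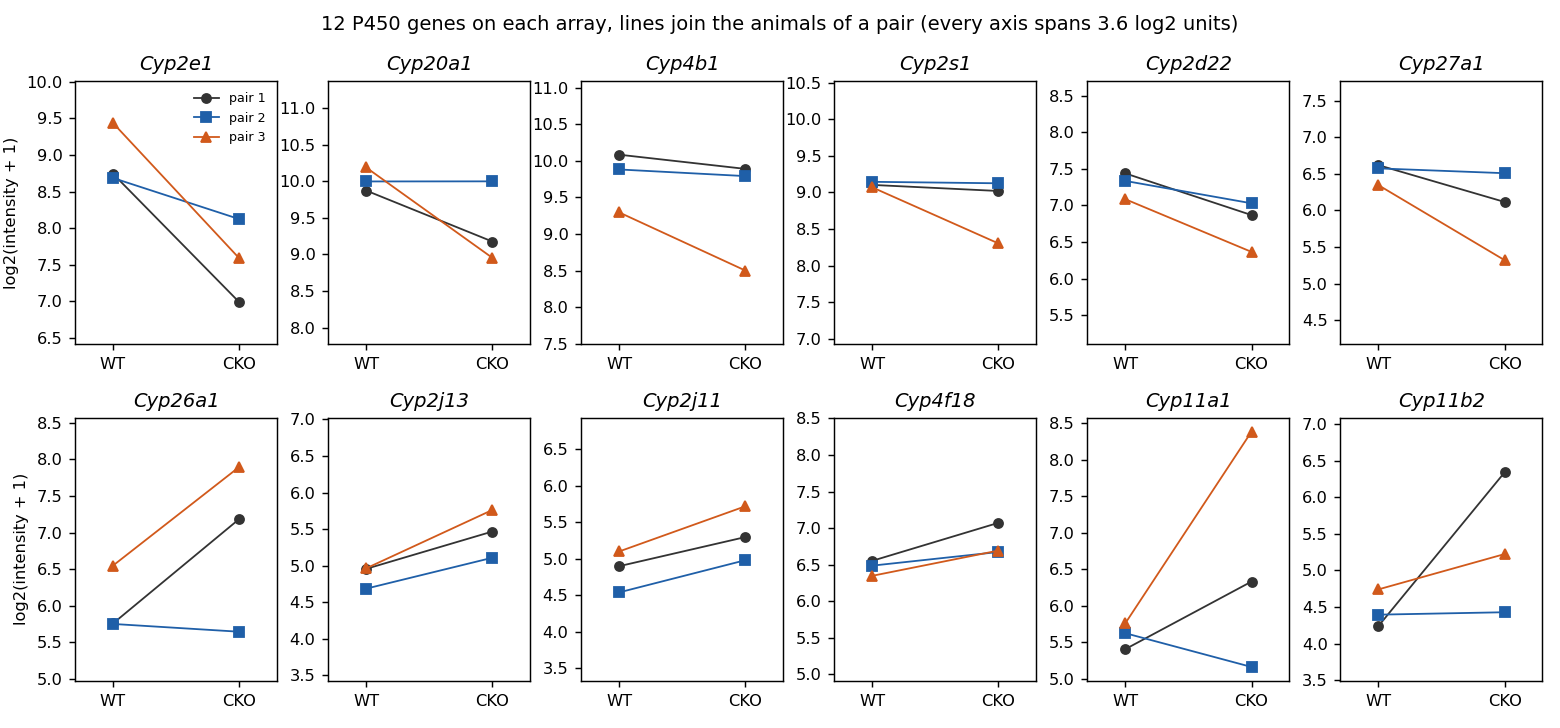
Log2(intensity + 1) of 12 P450 genes in wild type (WT) and Smad1 CKO (CKO) lungs; lines join the animals of a pair and every axis spans the same range. All 3 lines go down for Cyp2e1, by between -0.56 and -1.85, all 3 go up for Cyp2j13 and Cyp2j11, and single arrays carry Cyp11a1 (pair 3, 8.38) and Cyp11b2 (pair 1, 6.34).

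**Figure D4:**
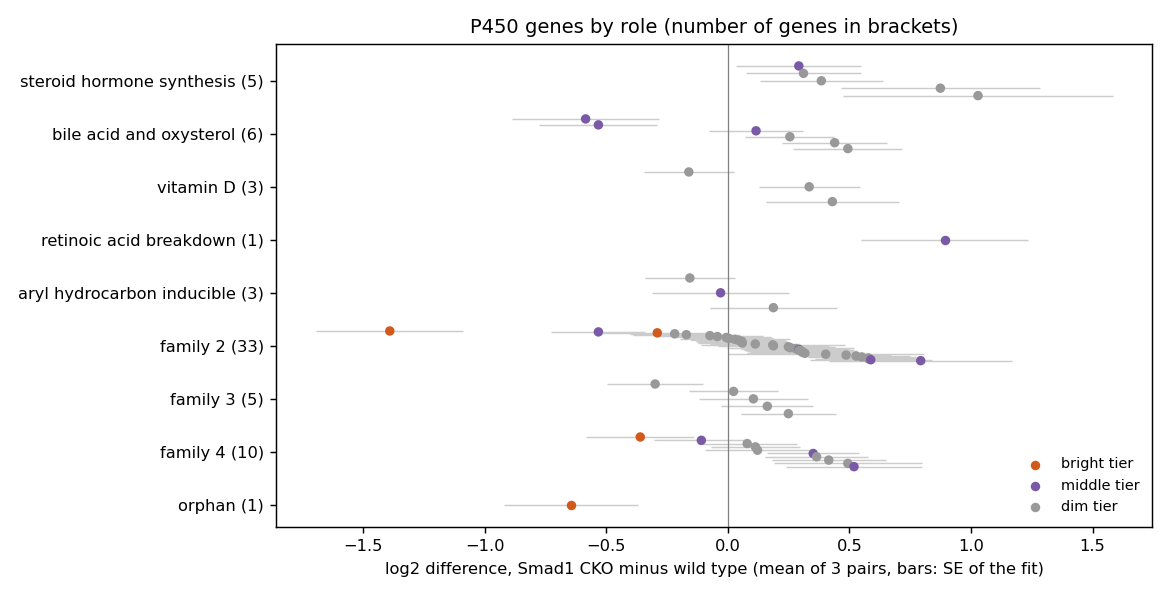
Mean log2 difference (Smad1 CKO minus wild type) of each of the 67 genes, by role, with the SE of the fit as bars; colours give the brightness tier. The bright genes lie below 0 (-1.39 to -0.29), and most dim genes lie between 0 and 0.6.

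Since many members are liver enzymes, hepatocyte markers were read beside them. Of the 8 listed, 7 were measured and none was bright. Their pair medians were 0.81, -0.01 and 0.58, and their summed intensity was 429.0 to 508.2 in wild type lungs and 812.7, 453.8 and 850.3 in CKO lungs 1 to 3. Alb was at 0.51 ± 0.14, Apoa1 at 0.82, Ahsg at 0.65 and Afp at 1.17. Apoa2 was at 0.47, Ttr at 0.35 and Fgb at 0.09, and none of the 7 passed (limma adjusted p of 0.367 to 0.769). The high sums were on the arrays Smad1 CKO 1 and 3, which also held the high values of Cyp26a1. Of the 7 markers 4 are dim, and all dim genes had pair medians of 0.25, 0.03 and 0.36. In the middle tier the medians of all genes were -0.15, -0.01 and -0.17. The part of hepatocyte RNA in the differences of the P450 genes was not tested. The 5 macrophage markers had pair medians of -0.10, 0.14 and -0.39, with summed intensities of 8717 to 14380 in wild type and 3033 to 8026 in CKO lungs. In wild type lungs most of that sum is Lyz2, which was at -1.45, while Adgre1 was at 0.51, Marco at 0.32, Cd68 at 0.05 and Csf1r at -0.16.

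The partners that supply P450 enzymes with electrons and haem were mostly bright (7 of the 8 measured of 10 listed), and none passed. Por, the electron donor of most P450 enzymes, and Fdxr were not analysed here. The 8 measured partners had a median of -0.55, with 3 lower and 0 higher in all 3 pairs (50.9% of all bright genes were lower in all 3). But their pair medians were -0.24, -0.05 and -1.46, and their median was 0.01 after cyclic loess normalization. Fech, which puts iron into haem, was at -0.79 ± 0.78, the cytochrome b5 reductase Cyb5r3 at -0.58 ± 0.52, and the cytochromes Cyb5b and Cyb5a at -0.75 ± 0.83 and -0.63 ± 0.91. Pair 3 carried these means, and without it they were -0.34, -0.30, -0.28 and -0.11 in that order.

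Among the receptors that regulate P450 genes, 15 of 17 listed were measured and 0 passed, with 4 lower and 5 higher in all 3 pairs (backgrounds of 29.3% and 21%) and a median of 0.14. Ahr was at 11.88, 11.98 and 11.67 in wild type and at 11.33, 11.64 and 9.91 in CKO lungs, with no overlap and a difference of -0.89 ± 0.77, or -0.45 without pair 3 and -0.28 after cyclic loess normalization. Nr1h3, the oxysterol receptor, was at -0.57 ± 0.33, with pair values of -0.62, -0.22 and -0.87, and at -0.34 after cyclic loess normalization. The drug sensor Nr1i2 was at 0.56 ± 0.22 (0.53, 0.35 and 0.79). Nr0b2, a repressor of bile acid synthesis, was at 0.77 ± 0.57 (1.31, 0.18 and 0.82). For these 4 the limma adjusted p was 0.367.

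Of 10 other oxidising and epoxide enzymes (11 listed), 4 were lower and 0 higher in all 3 pairs (29.3% of all genes were lower in all 3, and 50.9% of bright ones), none passed, and the median was -0.23, or 0.04 after cyclic loess normalization. The aldehyde oxidase Aox3 was at 8.50, 8.38 and 8.22 in wild type and at 7.93, 7.82 and 6.51 in CKO lungs, a difference of -0.95 ± 0.66. Ptgis, the prostacyclin synthase, was at -0.51 ± 0.29 and Aox1 at -0.38 ± 0.16. The lung flavin monooxygenase Fmo2 was at -0.85 ± 1.17 (limma adjusted p of 0.367 to 0.370 for the 4 genes). Fmo2 rested on pair 3, with pair values of -0.23, -0.11 and -2.20 and a mean of -0.17 without that pair. Aox3 was at -0.56 without pair 3, and Ptgis was at -0.07 after cyclic loess normalization.

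The genes set aside by the rule give a scale for these values. Cyp4v3 was at -1.91 ± 0.43 (pairs -2.38, -1.54 and -1.81) and the sterol enzyme Cyp51 at -1.01 ± 0.34 (-1.40, -0.79 and -0.83), while the club cell enzyme Cyp2f2 was at -0.29 ± 0.81 and Cyp26b1 at -0.20 ± 0.23 (limma adjusted p of 0.367 to 0.594).

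Several probe sets were present for 17 members, and for 7 of these their directions were mixed (Cyp7b1, Cyp27a1, Cyp1b1, Cyp2j6, Cyp2b10, Cyp2d13 and Cyp2j5). For 6 members the representative probe set is of a type whose probes may match more than 1 transcript.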

How the data were processed

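Each deposited value is the intensity of a probe set, not yet in log form by its range, and RMA is named in the submitters' processing notes, whose software and settings these notes do not state. Values were turned into log2(intensity + 1), which makes differences of dim genes smaller. Without 64 control probe sets, 45037 were fitted with limma 3.58.1 in R 4.3.3 (lmFit, eBayes, two-sided) with the pair as a block, at an adjusted p of 0.05. The fit was tested on simulated data. Pairs come from the design text and from letters shared by array names. Deviations from group means correlated within pairs at 0.258, 0.604 and 0.597, and at most at 0.215 between pairs. An exact permutation of 3 against 3 cannot go below 0.1, so none was used. No array was a copy of another (smallest root mean square distance 0.227, log2).

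Symbols are those of the platform annotation. The 67 members all matched the RefSeq gene table by gene identifier, with 0 symbols changed. By rule the text names members past the threshold, up to 12 lower and 12 higher in all 3 pairs by at least 1.5-fold (1 and 2 genes met this), the 12 with the highest wild type mean, and up to 4 of each group by p. Two-sided p-values were never adjusted over the members alone. The members, lists, role groups and rule were chosen with earlier results of these data known. Alternatives were leaving out the pair block, each pair or Smad1 CKO 3, cyclic loess or quantile normalization, a pseudocount of 16, an intensity trend, a brightness filter and averaged probe sets.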

Additional observations from a re-analysis of the deposited data

How the results depend on the processing

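No member passed the adjusted threshold in any of the 11 alternatives, and 26 of the 35 named members kept their direction in all that gave them a value. Over all probe sets the adjusted count lower was 1, and it was 16 among brighter probe sets only, 2 after cyclic loess, 30 (with 2 higher) with an intensity trend, and 0 with no replicate block, a pseudocount of 16 or quantile normalization. Leaving out a pair gave 0 to 24 lower and 0 to 4 higher, the 24 and 4 without pair 3. The unpaired fit without Smad1 CKO replicate 3 gave 0 lower and 1 higher.

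The members' median of 0.19 was -0.11 over the 15 bright enough to stay under the filter (8 lower, 7 higher) and -0.00044 without Smad1 CKO replicate 3, unpaired (34 lower, 33 higher, 0 past p and fold higher). Leaving out a pair gave medians of 0.08 to 0.31, with 16 to 27 lower on average. Lower on average were 26 after cyclic loess and 27 after quantile normalization. Past p and 1.5-fold, 2 were lower after cyclic loess, and higher were 5 with an intensity trend, 2 with averaged probe sets and 0 with no replicate block, a pseudocount of 16 or quantile normalization. Without replicate pairs 1 to 3 these counts were 1 to 4 lower and 0 to 11 higher, the 4 and 11 without pair 2.

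Directions turned after cyclic loess for Cyp2s1 (0.16), Cyp3a11 (-0.059), Cyp4b1 (0.14) and Cyp4f16 (0.063), and after quantile normalization for Cyp2s1 (0.094), Cyp3a11 (-0.034) and Cyp4b1 (0.040). Cyp1b1 was at 0.066 with averaged probe sets. Without Smad1 CKO replicate 3, unpaired, Cyp11b1 was at -0.00044, Cyp1a2 at -0.16, Cyp21a1 at -0.028, Cyp2d40 at -0.16, Cyp3a11 at -0.22, Cyp4b1 at 0.087 and Cyp4f16 at 0.016. Leaving out 1 pair gave ranges of -0.13 to 0.41 for Cyp1a2, -0.010 to 0.51 for Cyp21a1 and -0.096 to 0.29 for Cyp3a11 (each turned without replicate 3), and of -0.29 to 0.33 for Cyp1b1 (turned without replicate 1). The cause was not tested. No detection calls were used here, so whether a dim gene's RNA was present at all is not known here.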
